A study of Homo sapiens with 6 samples.

Results

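The regulators of the ATF4 branch of the cellular stress response followed here were ATF4, ATF5, ATF3, DDIT3, CEBPB, TRIB3, PPP1R15A, DDIT4, SESN2 and CHAC1. They were taken by gene name from the deposited transcript table, and the counts of each gene's transcripts were summed, which gave 10 of the 58735 genes in the table. All 10 passed the filter on low counts and were among the 17947 genes tested. The study silenced ANXA1, a phospholipid-binding annexin, in cells labelled CCRF-SB, a line labelled as B cell acute lymphoblastic leukaemia with lymphoblast-like cells from peripheral blood. The control group, siControl, had 3 libraries from cells with an empty vector, labelled as wild-type genotype. The other group, siANXA1, had 3 libraries from cells infected with a lentivirus carrying an ANXA1-silencing RNA, labelled as ANXA1 down-regulated. All cells grew in RPMI-1640 with serum and were labelled day 5. Puromycin selection is stated for the silenced cells, and the labels do not say whether the control cells received it, how many silencing sequences were used or whether replicates were separate cultures. The p-values below therefore measure only the spread between these libraries, which may be technical. In bulk RNA, fewer expressing cells and less RNA per cell cannot be told apart.

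ATF4 is a basic leucine zipper transcription factor whose protein is made when the translation factor eIF2 is phosphorylated by kinases that sense amino acid shortage, unfolded protein, heme shortage or viral RNA. It binds DNA with C/EBP proteins and raises genes for amino acid supply, together with a set of regulators that act on the response itself. These regulators include further transcription factors, brakes on the response, inhibitors of the growth kinase complex mTORC1 and an enzyme that degrades glutathione. Because ATF4 is controlled mainly at translation, its RNA is an incomplete measure of its protein, which was not measured here.

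The library with the fewest counts on genes, siANXA1 replicate 2, held 21333951, and the one with the most, siANXA1 replicate 1, held 44148505. Among the regulators, counts per library ran from 58 for CHAC1 in siANXA1 replicate 3 to 95330 for DDIT4 in siControl replicate 1. Levels are CPM, counts scaled to a common library size with TMM factors, unless another scale is named. No 2 replicates of a group agreed within sampling noise. Values of a group are always given in the order of replicates 1, 2 and 3, which is a naming and not a sequence. ANXA1 itself stood at 3696, 3696 and 3756 CPM across siControl and at 1606, 1723 and 1712 CPM across siANXA1, without overlap (log2 fold change -1.14 ± 0.093 SE, edgeR adjusted p = 0.0571). The cell label was checked against markers. Of 18 B cell markers, 13 averaged under 1 CPM, and DNTT, IGLL1 and VPREB1 had no count, which allows up to 0.141 CPM in the library with the fewest counts. CD24, which is not confined to B cells, held most of the summed B cell marker level of 54.2 to 92.6 CPM in siControl and 45.1 to 111 CPM in siANXA1. Of 14 erythroid markers, 13 averaged 1 CPM or more, and their summed level was 754 to 1842 CPM in siControl and 3988 to 5975 CPM in siANXA1, without overlap. HBE1, an embryonic globin gene, held much of that gap, at 4.74, 637 and 9.82 CPM in siControl and 3286, 2139.8 and 2973 CPM in siANXA1. Without HBE1 the sums were 737 to 1832 and 1849 to 2689 CPM, so that siControl replicate 3 and siANXA1 replicate 2 nearly met. The defining B cell markers were thus at or near 0 in libraries labelled as B cell leukaemia, while globin genes were abundant. T cell markers (7 of 9 under 1 CPM, CD2 and CD8A without a count) summed to 11.5 to 38.6 CPM for siControl and 15.3 to 23.8 CPM for siANXA1. Myeloid markers (7 of 10 under 1 CPM) summed to 38.8 to 47.5 and 36.6 to 42.4 CPM. Stromal and epithelial markers (5 of 11 under 1 CPM), mainly KRT8, KRT18 and EPCAM, summed to 480 to 536 and 481 to 638 CPM. The part of these other cell types in the values below was not tested.

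Promoter sequences of the regulators are shown as a description. Their part in the order of libraries described below was not tested. RefSeq promoter windows (GRCh38.p14, 250 bases before to 50 after each annotated start) were found for all 10 genes. The C/EBP-ATF composite element, through which ATF4 binds with C/EBP proteins, was searched as TGATGNAA on both strands. It occurred in windows of 2 of the 10 genes, against 4.46% of 27305 genes and 3.62% of 35116 windows. The cyclic AMP response element TGACGTCA, a site type of the ATF and CREB family, occurred in 1 of the 10 genes and in 2.25% of genes. A match is a description of letters and not a bound site. The 3 stretches follow, 5′ to 3′ on the strand of the gene, with the match in capitals.
CHAC1 (chr15:40953251-40953280, plus strand, match on the opposite strand, 209 bases before the RefSeq start): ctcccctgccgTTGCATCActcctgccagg
ATF3 (chr1:212565205-212565234, plus strand, 191 bases before a RefSeq start): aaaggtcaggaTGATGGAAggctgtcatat
PPP1R15A (chr19:48872352-48872381, plus strand, 58 bases before the RefSeq start): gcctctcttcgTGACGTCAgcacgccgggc
The CHAC1 match lies within exons of ENST00000444189 and ENST00000446533, which start further upstream than ENST00000617768, the CHAC1 transcript with the most counts. The ATF3 match belongs to a start 43263 bases before that of ENST00000341491, the ATF3 transcript with the most counts.

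DDIT4 and SESN2, the mTORC1 inhibitors, had neither element in their windows, and each held 2 copies of the CCAAT box (CCAAT on either strand). The box was found in windows of 6 of the 10 genes (ATF3, CEBPB, CHAC1, DDIT3, DDIT4 and SESN2) and in 39.7% of all genes. The ATF3 box, like its composite element, lies in the window of the start 43263 bases before that of ENST00000341491. No ATF3 window covered the start of ENST00000341491. The sequence upstream of DDIT4 and SESN2 is shown as an example of 2 genes with a like order of libraries, with these boxes in capitals. ATF4 and TRIB3 had the same 4 highest libraries in the same order and no CCAAT box in their windows. The TRIB3 windows belong to starts 678 to 726 bases after that of ENST00000217233, the TRIB3 transcript with the most counts. The sequence before the start of ENST00000217233 was therefore not searched for any element.
DDIT4 (chr10:72273674-72273919, plus strand): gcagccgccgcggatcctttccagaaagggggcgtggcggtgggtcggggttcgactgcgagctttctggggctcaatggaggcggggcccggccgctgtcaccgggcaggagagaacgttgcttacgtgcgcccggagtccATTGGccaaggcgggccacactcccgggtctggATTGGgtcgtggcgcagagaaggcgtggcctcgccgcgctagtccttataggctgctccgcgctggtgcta
SESN2 (chr1:28259268-28259517, plus strand): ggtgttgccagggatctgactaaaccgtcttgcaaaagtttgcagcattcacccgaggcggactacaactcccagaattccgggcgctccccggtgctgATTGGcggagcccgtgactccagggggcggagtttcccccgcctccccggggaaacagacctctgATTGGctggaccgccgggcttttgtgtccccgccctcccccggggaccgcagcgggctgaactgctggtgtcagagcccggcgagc

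Of the transcription factors, ATF4 (chromosome 22, 39519695 to 39522685, plus strand, GRCh38) stood at 683, 605 and 370 CPM across siControl and at 344, 526 and 327 CPM across siANXA1. The groups overlapped, because siANXA1 replicate 2 stood above siControl replicate 3. The means were 553 ± 163 and 399 ± 110.2 CPM (SD, n = 3), and the log2 fold change, siANXA1 minus siControl, was -0.47 ± 0.29 (SE; edgeR adjusted p = 0.686). ATF4 had the narrowest spread of the 10 genes, with 2.09-fold between its highest and lowest library, a log2 SD (0.45) near the median of all tested genes (0.45). Its processed copy ATF4P3 averaged 1.44 CPM, and reads that fit both cannot be told apart.

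ATF5 (chromosome 19, 49928702 to 49933935, plus strand) is a relative of ATF4 that is also controlled at translation. It read 206, 277 and 23.8 CPM in siControl and 10.03, 29.8 and 10.9 CPM in siANXA1. siControl replicates 1 and 2 stood far above the other 4 libraries, and siControl replicate 3 lay between the siANXA1 libraries, so the groups overlapped. ATF5 had the largest group difference of the 10 genes, with means of 169 ± 131 and 16.9 ± 11.2 CPM (SD, n = 3) and a difference on the log2 scale of -3.33 ± 0.94 (SE; edgeR adjusted p = 0.605, unadjusted p = 0.0107). DESeq2 called ATF5 lower (log2 fold change -3.32, adjusted p = 0.00805). NUP62, a nuclear pore gene on the opposite strand that overlaps ATF5, read between 73.6 and 233 CPM, and reads of the shared stretch cannot be told apart without strand.

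ATF3, a stress-induced factor of the same family that often represses, read 51.6, 39.6 and 7.61 CPM in siControl and 7.96, 79.97 and 14.7 CPM in siANXA1. Its gene spans 212565334 to 212620777 on chromosome 1, plus strand. Its highest library was siANXA1 replicate 2 and its lowest siControl replicate 3. The group means were close, at 32.9 ± 22.8 and 34.2 ± 39.8 CPM (SD, n = 3), with a log2 difference of 0.05 ± 1.003 (SE; edgeR adjusted p = 0.99). Its sign depended on the scaling, with -0.02 under upper quartile scaling, and on the libraries, with -1.53 without siANXA1 replicate 2 and -0.43 without siControl replicate 3.

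DDIT3 encodes CHOP, a factor that promotes cell death under lasting stress. The gene (chromosome 12, 57516588 to 57521737, minus strand) read 101, 95.4 and 19.9 CPM in siControl and 23.2, 77.5 and 26.3 CPM in siANXA1. siControl replicate 3 was the lowest of all 6 libraries, below every siANXA1 library. The log2 fold change was -0.77 ± 0.72 (SE; edgeR adjusted p = 0.78). DDIT3 overlaps the end of MARS, a tRNA synthetase gene on the opposite strand that read between 82.5 and 325 CPM.

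CEBPB, a leucine zipper partner of ATF4 encoded by a single exon (chromosome 20, 50190734 to 50192689, plus strand), read 45.5, 42.8 and 16.95 CPM in siControl and 22.4, 38.7 and 19.4 CPM in siANXA1. As for DDIT3 and ATF3, siControl replicate 3 was the lowest library. The log2 fold change was -0.39 ± 0.45 (SE; edgeR adjusted p = 0.807).

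**Figure D1:**
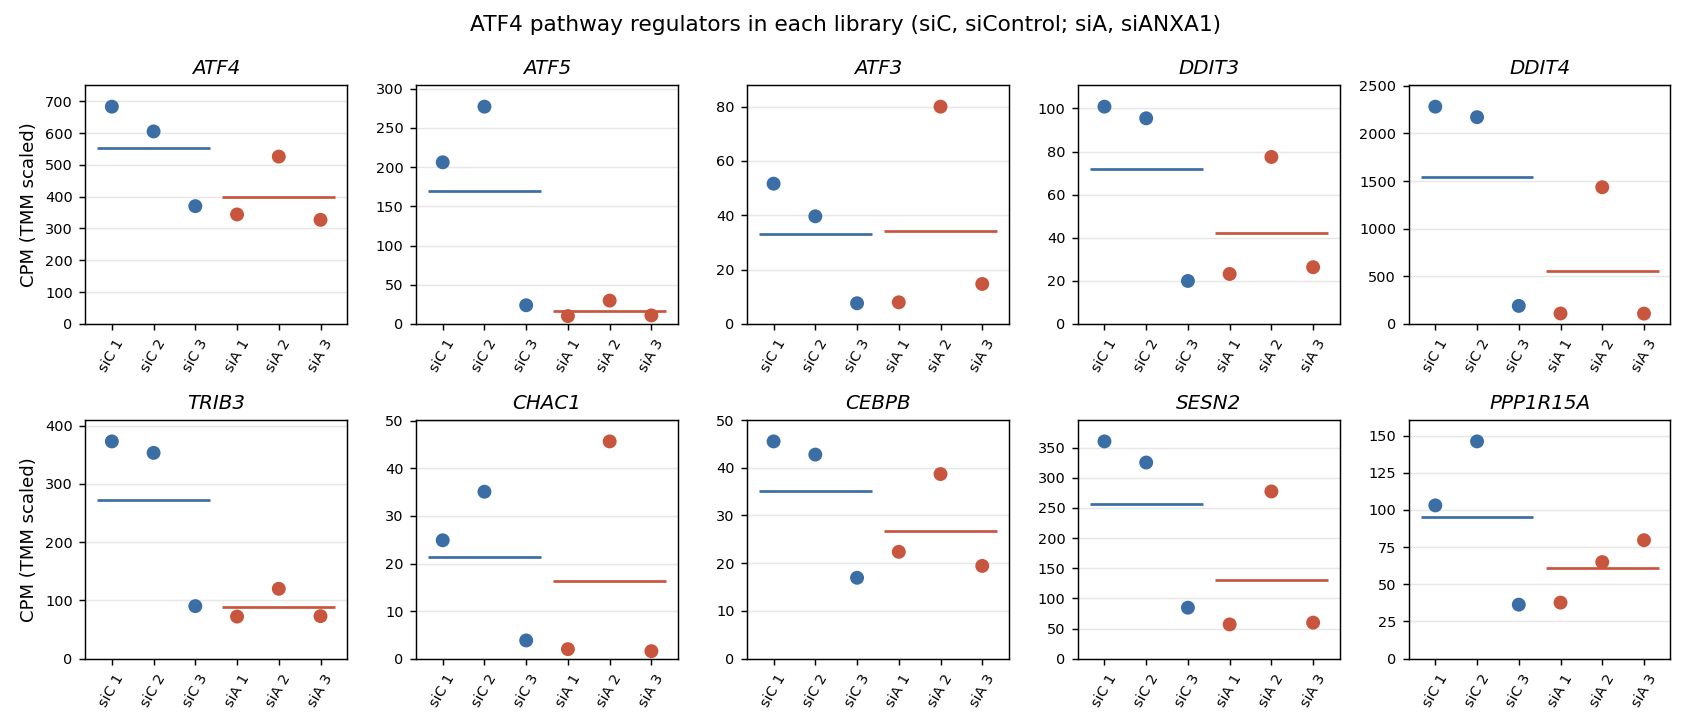
Each panel plots 1 regulator, with CPM (TMM scaled, linear axis from 0) on the y axis and the 6 libraries on the x axis (siC, siControl; siA, siANXA1), where points are libraries and horizontal lines are group means. In every panel siControl replicate 3 (the last siControl point) lies below siControl replicates 1 and 2 and below the highest siANXA1 library, so no regulator separates the groups.

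The brakes on the response were TRIB3 and PPP1R15A. TRIB3 (chromosome 20, 362835 to 397559, plus strand) is a pseudokinase that binds ATF4 and limits its activity. It read 373, 353 and 90.2 CPM in siControl and 72.3, 119.97 and 73.0 CPM in siANXA1. siControl replicates 1 and 2 stood above the other 4 libraries, and siControl replicate 3 lay between the siANXA1 libraries. The means were 272 ± 158 and 88.4 ± 27.3 CPM (SD, n = 3), and the log2 difference was -1.62 ± 0.54 (SE; edgeR adjusted p = 0.607, unadjusted p = 0.0222; DESeq2 adjusted p = 0.129). PPP1R15A encodes GADD34, which directs a phosphatase to eIF2 and so ends the block on translation. The gene (chromosome 19, 48872392 to 48876057, plus strand) read 103, 146 and 36.3 CPM in siControl and 37.7, 64.9 and 79.7 CPM in siANXA1. It was the only regulator in which siANXA1 replicate 3, not replicate 2, was the highest siANXA1 library. The log2 fold change was -0.65 ± 0.52 (SE; edgeR adjusted p = 0.751).

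The mTORC1 inhibitors were DDIT4 and SESN2. DDIT4 (chromosome 10, 72273920 to 72276036, plus strand) encodes REDD1, which restrains mTORC1 through the TSC complex. It read 2282, 2171 and 189 CPM in siControl and 109.8, 1435 and 109 CPM in siANXA1. The 12.1-fold range within siControl exceeded the 2.81-fold ratio of the group means (1547 ± 1177 and 551 ± 766 CPM; SD, n = 3). The log2 fold change of DDIT4 was -1.49 ± 1.29 (SE; edgeR adjusted p = 0.767), and DESeq2 gave it no p-value. siControl replicates 1 and 2 and siANXA1 replicate 2 were high, and the other 3 libraries were low. SESN2 (chromosome 1, 28259527 to 28282491, plus strand) is a leucine sensor that restrains mTORC1 through the GATOR complexes. It followed the same order of high and low libraries at a smaller range, with 360.5, 325 and 84.6 CPM in siControl and 56.8, 277 and 59.8 CPM in siANXA1. Its log2 fold change was -0.97 ± 0.80 (SE; edgeR adjusted p = 0.753).

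CHAC1 (chromosome 15, 40952962 to 40956519, plus strand) encodes an enzyme that cleaves glutathione, and of the 10 genes it had the widest range over all libraries, 28.8-fold. It read 24.9, 35.1 and 3.83 CPM in siControl and 2.002, 45.7 and 1.58 CPM in siANXA1. As for ATF3, its highest library was siANXA1 replicate 2. The log2 fold change was -0.38 ± 1.40 (SE; edgeR adjusted p = 0.942). Its direction rested on single libraries, with -3.56 without siANXA1 replicate 2, but 0.17 without siControl replicate 2, 0.15 without siANXA1 replicate 1 and 0.16 without siANXA1 replicate 3.

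Of the 10 regulators, 9 had a negative fold change, against 49.5% of all tested genes, and their median log2 fold change was -0.71, against 0.01 over all tested genes. With edgeR's quasi-likelihood test and adjustment over all genes, 0 of 10 passed 0.05, where 0.0111% of all genes did (2 genes, both higher). At an unadjusted p under 0.05, 2 of the 10, ATF5 and TRIB3, had lower values, and 4.52% of all genes did, with another 3.4% higher. DESeq2 called 1 of 10, ATF5, where it called 0.9% of genes lower and 0.77% higher, and limma-voom called 0. A log2 fold change of -1 or below was seen in ATF5, TRIB3 and DDIT4, 3 of 10, against 6.63% of all genes. In 0 of the 10 did the groups fail to overlap, although 14.6% of all tested genes had groups that did not overlap (7.24% with siANXA1 lower).

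Leaving out siControl replicate 3 or siANXA1 replicate 2 moved most of these values, and neither omission brought a regulator past the adjusted threshold. Without siControl replicate 3, all 10 fold changes were negative, with a median of -1.13. TRIB3 then stood at -2.04 (edgeR adjusted p = 0.0987) and ATF5 at -3.85 (adjusted p = 0.115). Without siANXA1 replicate 2, all 10 were negative too, with a median of -1.72, and DDIT4 stood at -3.82 and SESN2 at -2.13 (edgeR adjusted p = 0.438 for both). The median was -0.53 without siControl replicate 1 and -0.47 without siControl replicate 2. It was -0.43 without siANXA1 replicate 1 and -0.57 without siANXA1 replicate 3.

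**Figure D2:**
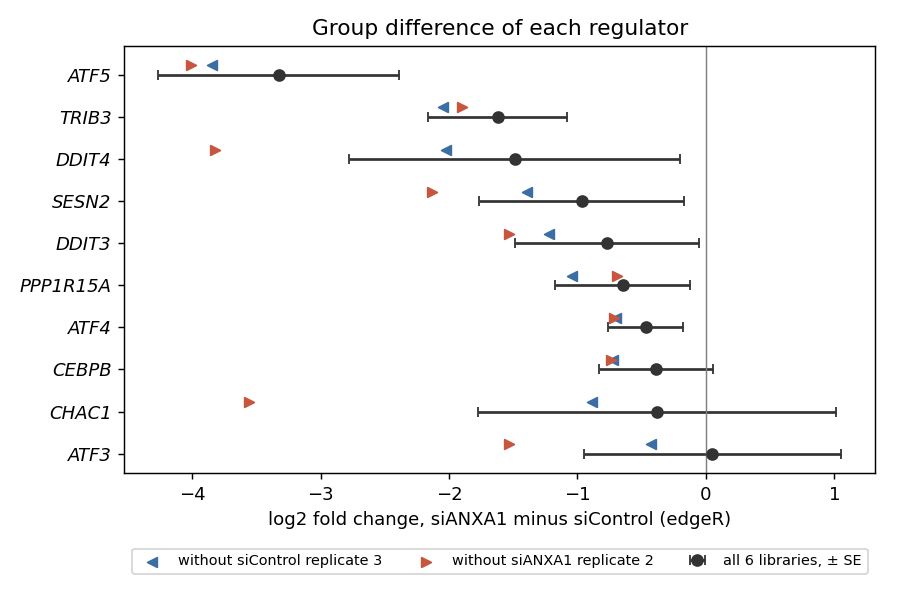
The x axis gives the edgeR log2 fold change, siANXA1 minus siControl, and the y axis the 10 regulators, where circles with bars are the estimate ± SE from 6 libraries and triangles are estimates without siControl replicate 3 or without siANXA1 replicate 2. Every triangle lies to the left of its circle, most of all for CHAC1 and DDIT4 without siANXA1 replicate 2 (-3.56 and -3.82).

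The spread within each group was set beside the difference between groups. In 10 of 10 the ratio of the highest to the lowest siControl library exceeded the ratio of the group means, which also held for 81.4% of all tested genes. Within siANXA1 the same was true of 8 of 10 and of 78.9% of all tested genes. The exceptions were ATF5, with 2.97-fold within siANXA1 against 10.0-fold between the means, and TRIB3, with 1.66-fold against 3.08-fold. The range over the 6 libraries was 2.09-fold for ATF4, 2.69-fold for CEBPB, 4.02-fold for PPP1R15A and 5.06-fold for DDIT3. It was 5.16-fold for TRIB3, 6.34-fold for SESN2 and 10.5-fold for ATF3. For DDIT4, ATF5 and CHAC1 it was 21.0-fold, 27.6-fold and 28.8-fold. The median log2 SD of the 10 was 1.18, against 0.45 over all tested genes, and 5 of the 10 (ATF3, SESN2, ATF5, DDIT4 and CHAC1) exceeded 90% of tested genes.

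The order of the libraries was shared. siControl replicate 3 stood below siControl replicates 1 and 2 in 10 of 10 regulators, as in 43.8% of all tested genes. siANXA1 replicate 2 stood above siANXA1 replicates 1 and 3 in 9 of 10, the exception being PPP1R15A, as in 41.0% of tested genes. The 3 highest libraries were siControl replicates 1 and 2 and siANXA1 replicate 2 in the same 9 genes, an order held by 19.7% of all tested genes. Centred on each gene's mean, the log2 median over the regulators was 1.24, 1.12 and -0.85 across siControl and -1.16, 0.60 and -0.87 across siANXA1. Between siControl replicates 1 and 2 the regulators had a median absolute difference of 0.16 log2 units, against 0.20 for all tested genes. Between siControl replicates 1 and 3 they differed by 2.21, against 0.54 for all tested genes. Between siANXA1 replicates 1 and 3 the median difference was 0.15, against 0.22. siANXA1 replicate 2 was the library with the fewest counts, and the part of depth in this order was not tested. KLF1, an erythroid factor picked from the marker list after its values were seen, ran the other way, at 43.1, 37.3 and 168 CPM in siControl and 153, 65.7 and 154 CPM in siANXA1, and its part was not tested.

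**Figure D3:**
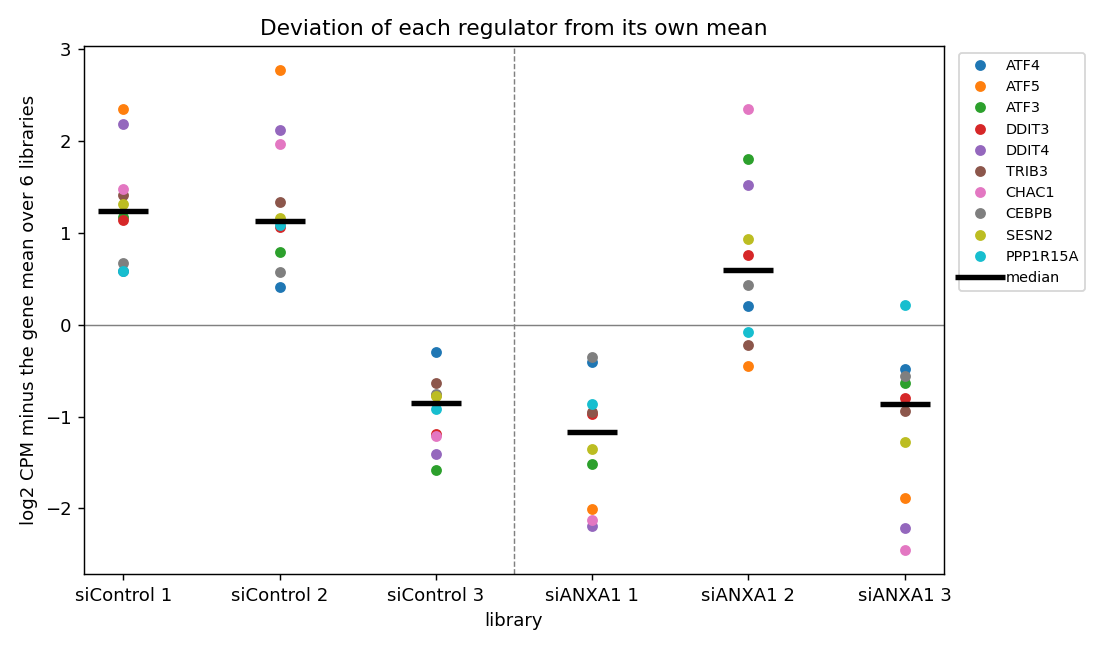
The y axis gives log2 CPM minus the gene's mean over 6 libraries, the x axis the libraries, coloured points are regulators and black bars are the median of the 10. The median lies at 1.24, 1.12 and 0.60 in siControl replicates 1 and 2 and siANXA1 replicate 2, and between -0.85 and -1.16 in the other 3 libraries.

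Levels were compared between genes in TPM, a scale that divides each transcript's counts by its length. In siControl, DDIT4 was highest at 1579 ± 1199.5 TPM, followed by ATF4 at 553 ± 102, TRIB3 at 194 ± 112, ATF5 at 149 ± 111, DDIT3 at 139 ± 86.8 and SESN2 at 132 ± 76.8 TPM (SD, n = 3). PPP1R15A stood at 71.0 ± 41.1, CEBPB at 31.7 ± 14.2, ATF3 at 30.4 ± 20.01 and CHAC1 at 22.8 ± 16.1 TPM. Of the neighbours in this order, only ATF4 and TRIB3 had ranges over the 3 libraries that did not overlap. In siANXA1 the order again began with DDIT4 (581 ± 810 TPM) and ATF4 (458 ± 179 TPM), and ATF5 and CHAC1 came last at 19.3 ± 11.3 and 19.3 ± 29.8 TPM, with ranges that overlapped. The CHAC1 mean rested on siANXA1 replicate 2 (53.7 TPM), and in siANXA1 replicates 1 and 3 ATF5 (11.9 and 13.6 TPM) stood above CHAC1 (2.24 and 2.05 TPM). The SD of DDIT4 in siANXA1 exceeded its mean because replicate 2 alone stood at 1516 TPM. In siANXA1 replicates 1 and 3 ATF4 (315 and 399 TPM) stood above DDIT4 (113 and 114 TPM). The same held in siControl replicate 3, with ATF4 at 440 and DDIT4 at 195 TPM.

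The ATF4 sum covered a large exchange between its 3 annotated transcripts, which carry the same coding segments (1053 bases) and differ in their exons outside them. ENST00000404241, which starts upstream at 39519695, read 284, 230 and 0.42 CPM in siControl and 184, 4.29 and 0.41 CPM in siANXA1. ENST00000396680, the shortest at 1419 bases, read 71.0, 109 and 306 CPM in siControl and 31.9, 478 and 289 CPM in siANXA1. Thus siControl replicates 1 and 2 and siANXA1 replicate 1 were assigned mostly to the long forms, and the other 3 libraries mostly to the short form, a division that is not that of the ATF4 total. ENST00000337304 followed the long form, at 328, 266 and 63.4 CPM in siControl and 128, 43.7 and 37.3 CPM in siANXA1. With the most abundant transcript in place of the sum, the log2 fold change of ATF4 turned positive (0.72; edgeR adjusted p = 0.928). In TPM, which takes transcript length into account, ATF4 read 638, 583 and 440 in siControl and 315, 659 and 399 in siANXA1. On that scale siANXA1 replicate 2 was its highest library, unlike in CPM. The transcript values are estimates for nearly coextensive transcripts, and whether the exchange is of RNA or of assignment was not tested.

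CHAC1 showed the same kind of exchange. ENST00000617961 held 11.6 CPM in siControl replicate 1 and 0 in the other 5 libraries. ENST00000446533, which starts further upstream, held 26.5 CPM in siControl replicate 2 and from 0.02 to 6.34 CPM elsewhere. ENST00000617768 held 45.03 CPM of the 45.7 CPM in siANXA1 replicate 2. For ATF3, ENST00000366987, which starts at the distal promoter whose sequence is shown above, had 0 counts in 5 libraries and 389 counts (10.6 CPM) in siANXA1 replicate 3, most of that library's ATF3. DDIT3 counts were divided too, with 43.2% to 70.3% of a library's DDIT3 counts on ENST00000346473 and 23.6% to 51.4% on ENST00000552740. The main forms of ATF5, DDIT4, TRIB3 and PPP1R15A held nearly all counts of their genes where levels were high, and SESN2 and CEBPB have a single annotated transcript, so their sums do not depend on such division.

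**Figure D4:**
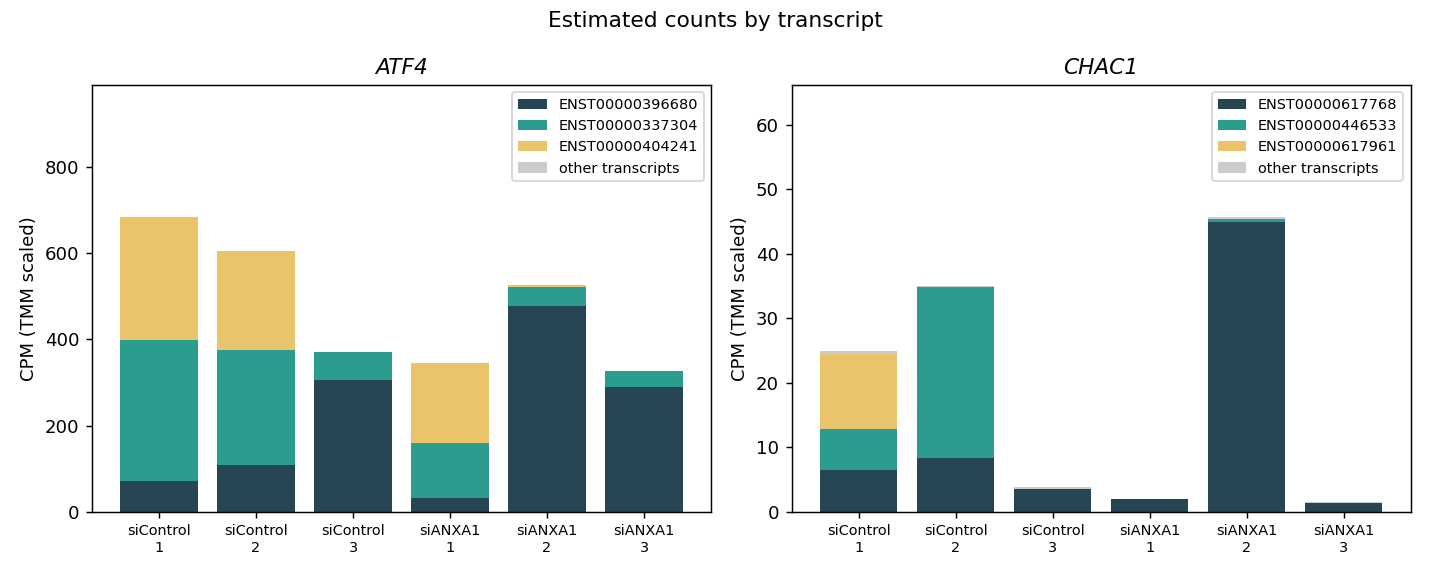
Stacked bars give CPM (TMM scaled) on the y axis for each library on the x axis, with 1 colour for each of the 3 transcripts with the most counts of ATF4 (left) and CHAC1 (right) and grey for the rest. ENST00000404241 of ATF4 is visible at 284, 230 and 184 CPM in siControl replicates 1 and 2 and siANXA1 replicate 1, and is near 0 in the other 3 libraries.

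The other genes of the pathway were read from lists that, like the regulators, were chosen with earlier results of these data known. In no list did a gene pass edgeR's adjusted threshold, the background being 0.0111% of genes. Over all tested genes, 49.5% were negative, 4.52% were lower and 3.4% higher at an unadjusted p under 0.05, and DESeq2 called 0.9% lower and 0.77% higher. The counts below stand beside those shares. Some lists shared genes, such as TNFRSF10B in the DDIT3 and p53 targets and CARS in the DDIT3 targets and the synthetases. Counts of different lists are therefore not independent. The eIF2 kinases, eIF2 and eIF2B subunits and their regulators were near balance, with 10 of 19 positive, 9 negative, a median log2 fold change of 0.04 and 0 at an unadjusted p under 0.05. EIF2S3, a subunit of eIF2, stood at 857 ± 41.7 and 737 ± 5.30 CPM (SD, n = 3), and GCN1, which activates the amino acid sensing kinase, at 496 ± 101 and 581 ± 59.1 CPM. The summed level of this list stayed within 2921 to 3288 CPM in all 6 libraries, while the 10 regulators summed to between 686 and 4230 CPM. Abundant genes weigh most in such sums, and DDIT4 alone held 2282 CPM of the highest regulator sum. Single genes of the eIF2 list varied more than its sum, such as EIF2AK1, named after its values were seen, from 40.8 to 120 CPM.

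ATF4 target enzymes, transporters and secreted factors had 24 of 26 tested members negative, with a median of -0.86 and 4 lower at an unadjusted p under 0.05. SLC1A5, a glutamine transporter, stood at 752 ± 74.7 and 545 ± 132 CPM and the leucine transporter gene SLC7A5 at 541 ± 129 and 448 ± 132 CPM (SD, n = 3). DESeq2 called 1 of them, SLC6A9, a glycine transporter named after its values were seen. The median of this list by library was 0.86, 0.86 and -0.58 in siControl and -0.54, 0.39 and -0.66 in siANXA1 (log2, centred), the same order of high and low libraries as in the regulators. Aminoacyl-tRNA synthetases raised by ATF4 had 11 of 12 negative, a median of -0.48 and 5 lower at an unadjusted p under 0.05. The groups did not overlap, with siANXA1 lower, in 4 of 12 synthetases, 4 of 26 targets and 7.24% of all tested genes. The synthetase median by library was 0.19, 0.42 and 0.01 in siControl and -0.51, -0.03 and -0.19 in siANXA1 (log2, centred). Unlike in the regulators, siControl replicate 3 stood above every siANXA1 library in this median. DESeq2 called 1 of the synthetases, GARS, and in the mTORC1 list below 1, TBC1D7, both named after their values were seen. EPRS stood at 986 ± 87.2 and 942 ± 21.9 CPM and AARS at 928 ± 372 and 567 ± 199 CPM (SD, n = 3).

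Relatives of the regulators, such as other CEBP, sestrin and Tribbles genes, had 10 of 19 negative, a median of -0.15 and 1 gene, higher, at an unadjusted p under 0.05. PPP1R15B, which like PPP1R15A directs a phosphatase to eIF2, stood at 161 ± 13.2 and 186 ± 23.9 CPM, and CEBPG, a C/EBP family partner of ATF4, at 172 ± 61.5 and 121 ± 49.2 CPM (SD, n = 3). DDIT3 targets had 7 of 8 negative, a median of -0.34 and 0 at an unadjusted p under 0.05, with the death receptor gene TNFRSF10B at 258, 254 and 51.6 CPM in siControl and 43.4, 130 and 44.3 CPM in siANXA1. CARS, a tRNA synthetase gene, stood at 145 ± 55.3 and 97.8 ± 45.97 CPM (SD, n = 3). Targets of p53, a factor that can also raise SESN2, DDIT4 and ATF3, had 11 of 17 negative, a median of -0.20 and 2 lower at an unadjusted p under 0.05, with the growth arrest gene GADD45A at 233 ± 82.1 and 231 ± 102 CPM and the cyclin gene CCNG1 at 172 ± 37.5 and 128 ± 28.5 CPM (SD, n = 3). The IRE1 and ATF6 branches of the unfolded protein response, which act beside ATF4, had 12 of 19 positive and a median of 0.24, with 3 of 19 at an unadjusted p under 0.05, 1 of them lower. Their chaperone gene HSP90B1 read 1979.7, 2026 and 3139 CPM in siControl and 3375, 3813 and 3592 CPM in siANXA1 (edgeR adjusted p = 0.61), without overlap and with siControl replicate 3 nearest to the siANXA1 libraries. CALR, another chaperone gene, stood at 1700.2 ± 527 and 2760.2 ± 319.99 CPM (SD, n = 3; edgeR adjusted p = 0.607). The 7 negative members of this list included ERN1 and EDEM1, named after their values were seen. ERN1 read 141, 146 and 34.6 CPM in siControl and 33.1, 66.0 and 36.2 CPM in siANXA1, with the same 3 highest libraries as most regulators. EDEM1 read 184, 191 and 109 CPM in siControl and 87.6, 103 and 76.8 CPM in siANXA1, without overlap (edgeR adjusted p = 0.605). Components and regulators of mTORC1, the complex that DDIT4 and SESN2 restrain, had 11 of 22 negative, a median of 0.00 and 3 at an unadjusted p under 0.05 (1 lower), with MTOR at 206 ± 51.6 and 238 ± 37.3 CPM and SEC13 at 192 ± 15.1 and 190.05 ± 22.7 CPM (SD, n = 3).

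The genes nearest to the regulators in pattern were found among 9840 other protein coding genes with a mean of 5 CPM or more, by the root mean square difference of centred log2 CPM from the regulators' median over the 6 libraries. They were HSPA6 (0.12), PCSK4 (0.12), TUFT1 (0.14), GTPBP2 (0.14), TMCC2 (0.15), MYCL (0.16), CD69 (0.17) and TRAPPC6A (0.18). GTPBP2, a GTPase gene, was the most abundant, with 200.1, 221 and 57.2 CPM in siControl and 47.3, 135 and 45.1 CPM in siANXA1. Of the regulators themselves, DDIT3 (0.18) and SESN2 (0.24) lay nearest to the median and CHAC1 (1.11) farthest. Nearest to ATF4 alone were MIIP (0.05), ETFB (0.06), which encodes a subunit of the mitochondrial electron transfer flavoprotein, and PACSIN3 (0.06). These distances share the 6 libraries and their scaling, and describe likeness only.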

How the data were processed

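RNA from 6 libraries of cells labelled CCRF-SB was prepared, per the labels' protocols, with a TruSeq kit. The table the authors deposited holds, for each transcript, an estimated count as a whole number without normalization. That they are estimates was read from the values. For aligner, counter and strand, the sources used here name none. The submitters' processing notes name mm10, a mouse build, but all 206601 rows with a gene had the start and end of human GENCODE 29 (GRCh38). The deposited annotation also gives transcript length in bases, another unit than counts, used for TPM. The 16014 rows without a gene (16.9% to 17.7% of a library) stayed out.

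Counts were summed per gene. Group was the only term of the model in edgeR 4.0.16 under R 4.3.3 (filterByExpr, TMM factors, robust glmQLFit, glmQLFTest), with Benjamini-Hochberg adjustment over 17947 genes, two-sided, at 0.05. Log2 levels used a prior count of 2. DESeq2 1.42.0 and limma 3.58.1 (voom) were alternatives. The test was also run on simulated data for siANXA1 against siControl (17393 genes). It found 2 of 67 genes given a 2-fold change, 28 of 65 given 4-fold and 39 of 61 given 8-fold, and 11 calls were false. Each simulated gene was drawn independently, so an order of libraries shared between genes was not part of the simulation. The common biological coefficient of variation was 0.423.

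The regulators, lists and tests were chosen with earlier results of these data known. Genes named from each list were its 2 tested members with the highest mean CPM, as none passed the threshold. Those said to be named or picked after their values were seen are exceptions. The nearest genes were 8 to the median and 3 to ATF4. Promoters were from RefSeq. Figures were drawn with matplotlib 3.10.9.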

Additional observations from a re-analysis of the deposited data

How the results depend on the processing

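Each regulator was recomputed under 17 alternatives: 3 scalings, 2 other tools (DESeq2 and limma-voom), 2 filters, 2 ways of summing transcripts, another library size, a replicate block, and 6 omissions of a library. Of 170 values, 157 kept their direction and their side of the threshold, 12 changed sign and 1, ATF5 in DESeq2, passed it. DDIT4 has no adjusted p in DESeq2. The count of called regulators was 0 under all alternatives but DESeq2 (1), and between 0 and 0 with a library left out. ATF3, at 0.05 with all libraries, read -0.015 with upper quartile scaling, -0.43 with limma-voom, -0.0034 without a filter, -0.10 with the most abundant transcript and -0.10 with the replicate block, and from -1.53 to 0.52 with a library left out. With the most abundant transcript, ATF4 read 0.72 and CHAC1 1.38, and CHAC1 ranged from -3.56 to 0.17 with a library left out. The cause was not tested. Over all genes, 2 were called, against 258 with DESeq2 (119 higher, 139 lower), 0 with protein coding transcripts alone, 1 with the most abundant transcript, 0 with the replicate block and 0 to 7 with a library left out.

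Deviations from the group means correlated across genes at -0.11, 0.26 and 0.26 for replicate numbers 1, 2 and 3. siControl replicates 2 and 3 each correlated best with the siANXA1 library of the same number. siControl replicate 1 correlated best with siANXA1 replicate 2 (0.23), and siControl replicate 3 also reached 0.21 with siANXA1 replicate 1. These values cannot decide whether the numbers mark paired libraries, because libraries can be alike without a common culture or day. With the replicate block, 0 regulators were called, and their median log2 fold change was -0.87. Depth limits the low values: a count of 0 allows 0.068 to 0.141 CPM, for counting error only. Of genes simulated with a 2-fold change, 2 of 67 were found.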
